A study of Mus musculus with 4 samples.

Results

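Transforming growth factor beta (TGF-beta) signalling was followed through 10 genes, from ligand to nucleus, in bulk RNA-seq of CD11b+ microglia. The 10 genes were chosen by role: the ligands Tgfb1 and Tgfb2, the activation factors Nrros and Itgb8, the receptors Tgfbr1 and Tgfbr2, and the signal mediators Smad2, Smad3, Smad4 and Smad7. All 10 were found by symbol among the 49993 genes counted in each library, and all 10 passed the filter on low counts. The cells had been isolated with magnetic beads from brains of 10-month-old mice, and every mouse carried APP/PS1, transgenes that lead to amyloid deposits and model Alzheimer's disease. In the AD group (genotype APP/PS1+ asrij+/+, n = 2 libraries) asrij was intact, and in the AD/KO group (APP/PS1+ asrij-/-, n = 2 libraries) it had been deleted constitutively rather than in microglia alone. Mice without APP/PS1 were not analysed here, so the deletion was compared only on that background. The labels give neither the promoter of the transgenes nor the number or sex of the animals behind a library. They also do not say whether replicates differ only technically. The 2 AD libraries differed in Xist, a female transcript (6 and 1391 reads), and so were not the same sample sequenced again. The p-values measure the spread between these libraries.

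TGF-beta is secreted bound to its own propeptide and is inactive until it is released. On microglia the latent form is held at the cell surface by NRROS (also called LRRC33), and the integrin pairing the αv and β8 chains, the latter encoded by Itgb8, frees the ligand. The active ligand joins the type II receptor to the type I receptor, which phosphorylates SMAD2 and SMAD3. These pair with SMAD4 and enter the nucleus, where SMAD7 is among the induced genes and feeds back as an inhibitor. The pathway is known for keeping adult microglia in their resting, homeostatic state.

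The AD libraries held 13102622 (replicate 1) and 15928196 (replicate 2) counts and the AD/KO libraries 19302474 and 19810076. In CPM, the usual reads-per-library-size unit, 10 reads are thus 0.763 or less before TMM correction. CPM is used here after TMM correction, which adjusts library sizes for differences in composition. The deleted gene, Ociad1 (asrij), stood at 50.2 and 63.4 CPM in the AD libraries and at 38.9 and 32.1 CPM in the AD/KO libraries. It was lower but not lost, and its difference did not pass the test (log2 fold change −0.68, SE 0.29, adjusted p = 0.680, edgeR quasi-likelihood). On the other strand Gm42733 overlaps 9.41% of its exonic length. AD and AD/KO therefore stand for libraries as labelled. The defining microglia markers were present throughout, with P2ry12 at 1336, 1037, 1323 and 348 CPM in the order above. The summed level of the 20 microglia markers was 26430, 18980, 26970 and 8215 CPM. That of 12 astrocyte markers was 2052, 4894, 5149 and 13070 CPM, and that of 12 neuron markers was 637, 1959, 1571 and 4839 CPM. None of these markers was at 0 in any library. AD/KO replicate 2 thus had the least microglial and the most astrocyte and neuron RNA, and AD replicate 1 had the least astrocyte and neuron RNA. AD replicate 2 stood apart in 10 neutrophil markers, with 4505 CPM against 323 to 520 CPM elsewhere, and in Xist, a transcript of the female inactive X, with 1391 reads against 3 to 15.

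Between the groups, 8 of the 10 genes had a lower mean in AD/KO and 2 (Itgb8 and Tgfb2) a higher one, but 0 of 10 passed the test. The test was edgeR's quasi-likelihood F-test with Benjamini-Hochberg adjustment over 21439 genes at a threshold of 0.05, which called 0 genes in all (0%). At an unadjusted p under 0.05 there were 0 of the 10 genes, against 1072 of all genes (5%: 2.7% higher and 2.3% lower in AD/KO). DESeq2 also called 0 of the 10 after adjustment, against 90 of all genes (0.42%). At an unadjusted p under 0.05 DESeq2 had 1 of the 10 (Itgb8), against 2325 of the 21439 genes. The median log2 fold change of the 10 was −0.38, against −0.05 over all genes tested, of which 52.8% were below 0. Leaving out an AD/KO library gave this median as −0.77 (replicate 1) or −0.0074 (replicate 2), and leaving out AD replicate 1 gave −0.14. It turned to 0.35 with scaling to the microglia markers, where the median of all genes tested was 0.79. With the neuron and astrocyte level as a covariate it turned to 0.22, against 0.0036 over all genes. The groups did not overlap in 1 of the 10, Itgb8, against 42% of all genes. Itgb8 was higher in AD/KO, as were 20.3% of all genes without overlap, and 0 of the 10 were lower without overlap, against 21.7%. The 8 genes with a lower mean were each highest in AD replicate 1 and lowest in AD/KO replicate 2. Both genes with a higher mean had the opposite order, lowest in AD replicate 1 and highest in AD/KO replicate 2.

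**Figure D1:**
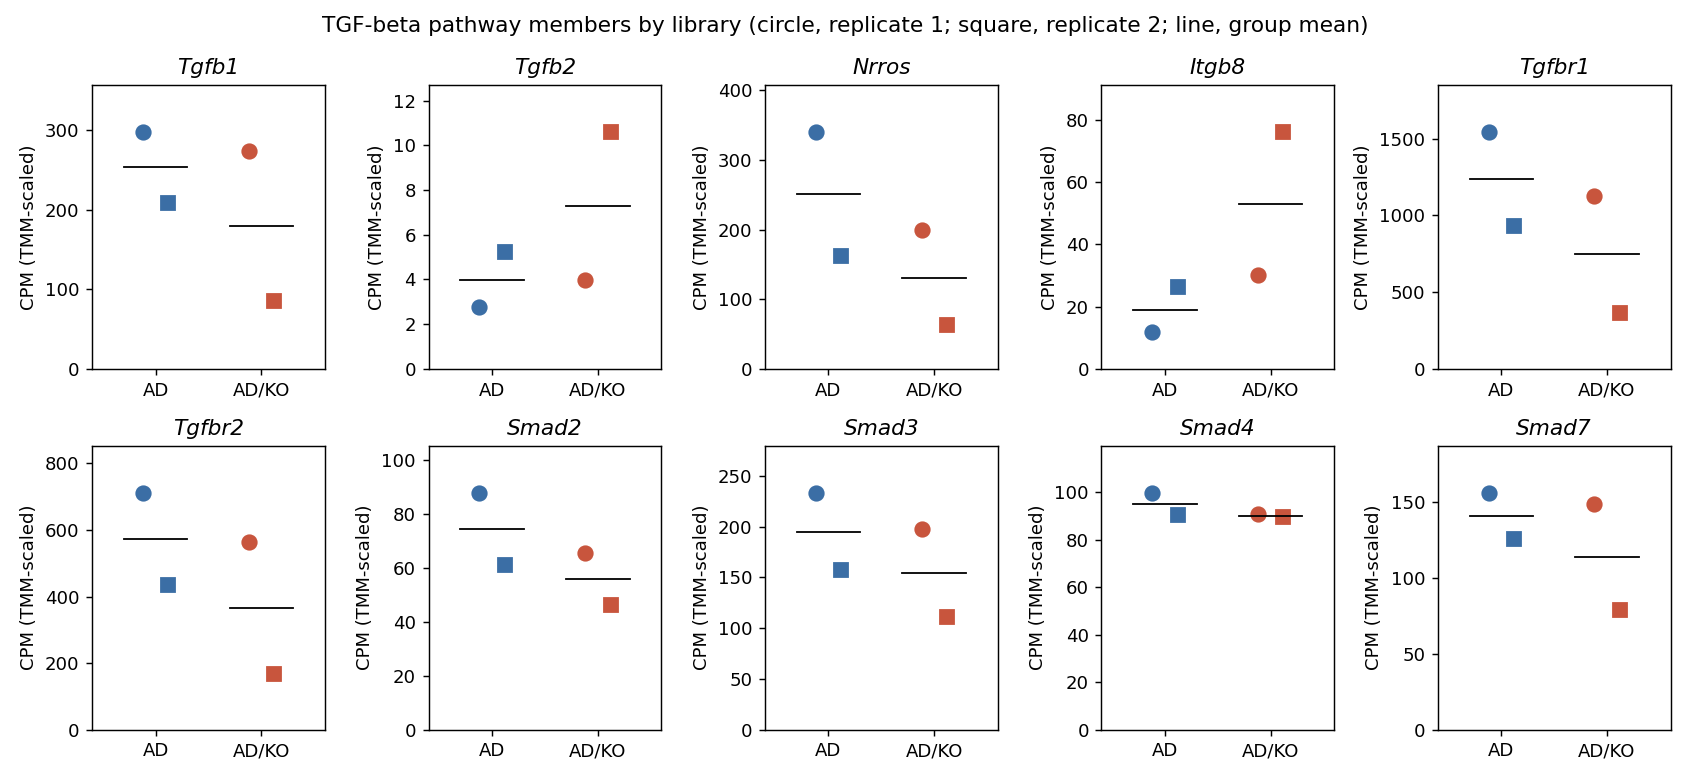
TMM-scaled CPM (vertical axes, each from 0) of the 10 TGF-beta pathway genes in the 2 AD and 2 AD/KO libraries, with circles for replicate 1, squares for replicate 2 and lines for group means. In 9 of the 10 genes the groups overlap, and only Itgb8 has both AD/KO libraries above both AD libraries.

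The receptors were the most abundant genes of the 10. Tgfbr1 (gene ID 21812, chromosome 4, 47353222 to 47414926, on build GRCm38.p6 as for all genes here), the type I receptor kinase that phosphorylates the Smads, was at 1541 and 932 CPM in the AD libraries and at 1125 and 365 CPM in the AD/KO libraries. AD/KO replicate 1 lay between the AD libraries, and AD/KO replicate 2 lay below all others. The group levels were 1236 ± 431 CPM in AD and 745 ± 537 CPM in AD/KO (SD, n = 2 each). The log2 fold change of −0.73 (SE 0.73) did not pass the test (adjusted p = 0.725, edgeR quasi-likelihood).

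Tgfbr2 (gene ID 21813, chromosome 9, 116087695 to 116175363), the type II receptor that binds the ligand first, was at 711 and 434 CPM in AD and at 563 and 166 CPM in AD/KO. It had the same order of libraries as Tgfbr1 and a log2 fold change of −0.65 (SE 0.70, edgeR adjusted p = 0.742). The 2 receptors kept nearly the same proportion in every library. The ratio of Tgfbr1 to Tgfbr2 in RPKM (CPM per kilobase of exon) was 2.72, 2.69, 2.50 and 2.76, a 1.10-fold range, while each receptor alone varied by 4.22-fold and 4.29-fold.

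Nrros (gene ID 224109, chromosome 16, 32142785 to 32165594), which tethers latent TGF-beta1 on myeloid cells, had the lowest log2 fold change of the 10. It was at 340 and 162 CPM in AD and at 199 and 62.5 CPM in AD/KO. AD replicate 1 stood above the other libraries, and AD/KO replicate 1 lay above AD replicate 2, so that the groups overlapped. The means were 251 ± 126 CPM in AD and 131 ± 96.7 CPM in AD/KO (SD, n = 2 each), with a log2 fold change of −0.94 (SE 0.70, edgeR adjusted p = 0.683).

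Tgfb1 (gene ID 21803, chromosome 7, 25687002 to 25705077), the ligand on which microglia depend, was at 298 and 209 CPM in AD and at 274 and 86.0 CPM in AD/KO. AD/KO replicate 1 was close to the higher of the AD libraries and AD/KO replicate 2 was far below both. The log2 fold change was −0.49 (SE 0.63, edgeR adjusted p = 0.773), and without AD/KO replicate 2 it was 0.12, in the other direction.

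The levels of these 4 genes were set against the microglia markers. Per 1000 CPM of the summed microglia markers, Tgfb1 was at 11.3 and 11.03 CPM in the AD libraries and at 10.2 and 10.5 CPM in the AD/KO libraries. Its range over the libraries was 1.11-fold on this scale and 3.46-fold in CPM. Tgfbr2 was at 26.9, 22.8, 20.9 and 20.2 CPM per 1000, and Tgfbr1 at 58.3, 49.1, 41.7 and 44.5. Nrros was at 12.8, 8.53, 7.39 and 7.61 CPM per 1000, so that AD replicate 1 stood above the other 3 libraries, which lay within a narrow range. Of the 10 genes, only these 4 had ratios in which the groups did not overlap, with AD/KO lower. That compares with 8.17% of all genes tested (7.79% were higher without overlap). The range over the libraries was 1.33-fold for Tgfbr2, 1.40-fold for Tgfbr1 and 1.74-fold for Nrros, the last no narrower than that of Smad7 (1.74-fold) and near that of Smad3 (1.84-fold). Smad2 (2.32-fold) and Smad4 (3.24-fold) ranged more widely. The differences of mean log2 ratio were −0.11 for Tgfb1, −0.27 for Tgfbr2, −0.31 for Tgfbr1 and −0.48 for Nrros. With 2 libraries against 2 no exact permutation test of these ratios can pass a threshold of 0.05. In the edgeR fit scaled to the geometric mean of the microglia markers, the log2 fold changes of these 4 genes were −0.04 (Tgfb1), −0.20 (Tgfbr2), −0.25 (Tgfbr1) and −0.44 (Nrros). None passed (edgeR adjusted p from 0.898 to 0.993). In bulk RNA, fewer cells of a type and less RNA per cell cannot be told apart.

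**Figure D2:**
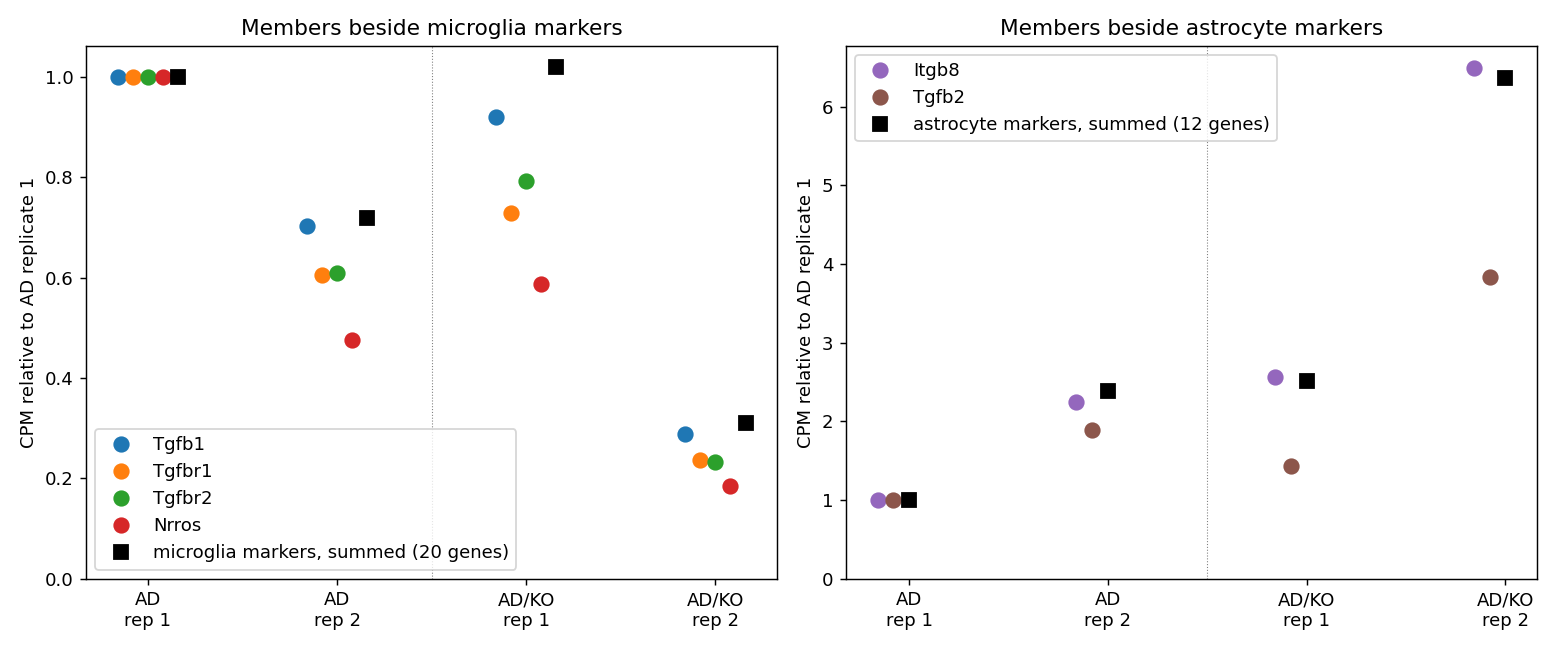
CPM in each library relative to AD replicate 1, for Tgfb1, Tgfbr1, Tgfbr2 and Nrros beside the sum of 20 microglia markers (left) and for Itgb8 and Tgfb2 beside the sum of 12 astrocyte markers (right). Circles are genes and squares are marker sums. Tgfb1 stays closest to the microglia sum and Nrros lies furthest below it, while Itgb8 lies beside the astrocyte sum in all 4 libraries.

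As the members whose ratio to the microglia markers was lower in AD/KO without overlap, these 4 have their promoter windows shown, each the 250 bases before the RefSeq gene start on build GRCm38.p6, from 5′ to 3′ on the strand of the gene. The windows lie at chr4:47352972-47353221 on the + strand (Tgfbr1), chr9:116175364-116175613 on the - strand (Tgfbr2), chr16:32165595-32165844 on the - strand (Nrros) and chr7:25686752-25687001 on the + strand (Tgfb1), and no exon of GENCODE M21 overlaps them. Capitals mark AGGAAG (the core bound by PU.1 and other ETS factors), CAGACA (the core of the Smad CAGA box) and GGGCGG (the GC box), on either strand.
Tgfbr1: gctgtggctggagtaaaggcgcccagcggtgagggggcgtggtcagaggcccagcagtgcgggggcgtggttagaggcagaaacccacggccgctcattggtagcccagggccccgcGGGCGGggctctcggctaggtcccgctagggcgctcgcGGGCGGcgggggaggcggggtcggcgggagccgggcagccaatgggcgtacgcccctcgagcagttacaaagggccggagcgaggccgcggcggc
Tgfbr2: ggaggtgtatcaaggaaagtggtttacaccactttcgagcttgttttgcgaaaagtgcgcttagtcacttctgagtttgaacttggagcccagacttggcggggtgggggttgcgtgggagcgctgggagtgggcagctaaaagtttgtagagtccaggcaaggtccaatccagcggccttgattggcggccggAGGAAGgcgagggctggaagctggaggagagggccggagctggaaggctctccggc
Nrros: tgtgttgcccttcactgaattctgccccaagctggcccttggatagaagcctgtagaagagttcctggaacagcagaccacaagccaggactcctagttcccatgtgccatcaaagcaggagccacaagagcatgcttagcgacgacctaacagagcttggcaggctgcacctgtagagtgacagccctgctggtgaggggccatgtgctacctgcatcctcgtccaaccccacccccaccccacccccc
Tgfb1: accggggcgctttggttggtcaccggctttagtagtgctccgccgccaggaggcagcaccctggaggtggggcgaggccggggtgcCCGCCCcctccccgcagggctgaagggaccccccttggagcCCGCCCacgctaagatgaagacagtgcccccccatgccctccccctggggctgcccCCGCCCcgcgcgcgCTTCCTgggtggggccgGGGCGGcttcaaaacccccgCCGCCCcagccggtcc
The windows shared little by these letters. AGGAAG occurred 1 time each in the windows of Tgfbr2 and Tgfb1 and 0 times in those of Tgfbr1 and Nrros, and 29.5% of 32851 RefSeq windows of the same length hold it. GGGCGG occurred 5 times in the Tgfb1 window, 2 times in that of Tgfbr1 and 0 times in the others, and 32.7% of all windows hold it. CAGACA was in 0 of the 4, and 17.1% of all windows hold it. The Tgfbr1 and Tgfb1 windows had a GC content of 74.8% and 75.2%, and those of Tgfbr2 and Nrros both had 58.4%.

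Itgb8 (gene ID 320910, chromosome 12, 119162803 to 119238276), the integrin chain that activates latent TGF-beta, had the highest log2 fold change of the 10. It was at 11.7 and 26.3 CPM in AD and at 30.0 and 76.0 CPM in AD/KO. Both AD/KO libraries lay above both AD libraries, but AD replicate 2 and AD/KO replicate 1 were close to each other. The means were 19.0 ± 10.3 CPM in AD and 53.0 ± 32.5 CPM in AD/KO (SD, n = 2 each), a log2 fold change of 1.48 (SE 0.63). It did not pass the test (unadjusted p = 0.0667, adjusted p = 0.680, edgeR quasi-likelihood). The level of Itgb8, a gene that astrocytes also express, varied with the astrocyte markers. Per 1000 CPM of the 12 astrocyte markers it was 5.69, 5.38, 5.83 and 5.82 CPM in the 4 libraries. That is a 1.085-fold range, against 6.50-fold for Itgb8 in CPM and 6.37-fold for the marker sum. On that scale the groups again did not overlap, with AD/KO higher, as for 5.03% of all genes. The sums of 12 neuron and 12 oligodendrocyte markers were also lowest in AD replicate 1 and highest in AD/KO replicate 2. Their ranges were 7.60-fold and 5.18-fold, so this course was not particular to the astrocyte markers. The part of astrocyte or other brain cell RNA in the difference was not tested. With the mean level of the neuron and astrocyte markers as a covariate, the log2 fold change was 0.25.

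Tgfb2 (gene ID 21808, chromosome 1, 186622787 to 186709697), the isoform of the ligand made mainly outside the microglial lineage, was the least abundant gene of the 10. Read counts were 38 and 85 in AD and 76 and 195 in AD/KO, or 2.76 and 5.23 CPM against 3.96 and 10.6 CPM. AD/KO replicate 1 lay between the AD libraries, and AD/KO replicate 2 was above all others. The log2 fold change of 0.86 (SE 0.68) did not pass the test (edgeR adjusted p = 0.690), and without AD/KO replicate 2 it was −0.0025. Per 1000 CPM of astrocyte markers Tgfb2 was at 1.34, 1.07, 0.769 and 0.810 CPM, lower in AD/KO without overlap, as were 48.9% of all genes on that scale. It overlaps Gm29491 on the other strand over 2.14% of its exonic length. In RPKM, Tgfb1 exceeded Tgfb2 by 124-fold and 46.0-fold in the AD libraries and by 79.4-fold and 9.33-fold in the AD/KO libraries, the smallest excess being in the library with the most astrocyte RNA.

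The signal mediators were 4 Smads. Smad3 (gene ID 17127, chromosome 9, 63646766 to 63757994), a receptor-activated Smad that binds DNA, was at 233 and 157 CPM in AD and at 198 and 110.5 CPM in AD/KO. Smad2 (gene ID 17126, chromosome 18, 76241090 to 76311748), the other receptor-activated Smad, was at 87.7 and 61.2 CPM in AD and at 65.4 and 46.2 CPM in AD/KO. In both, AD/KO replicate 1 lay between the AD libraries. The log2 fold changes were −0.34 (SE 0.44) for Smad3 and −0.42 (SE 0.35) for Smad2, and neither passed (edgeR adjusted p of 0.775 and 0.699).

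Smad7 (gene ID 17131, chromosome 18, 75367365 to 75395935), the inhibitory Smad that the pathway itself induces, was at 156 and 126 CPM in AD and at 149 and 79.1 CPM in AD/KO. Its log2 fold change was −0.30 (SE 0.42, edgeR adjusted p = 0.785), and without AD/KO replicate 2 it was 0.093. The ratio of Smad3 to Smad7 in RPKM was 1.22, 1.02, 1.08 and 1.14, a 1.19-fold range in which the groups overlapped. The ratio of Smad3 to Smad2 was 4.21, 4.06, 4.79 and 3.79.

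Smad4 (gene ID 17128, chromosome 18, 73634790 to 73703791), the common partner of the activated Smads, varied least. It was at 99.7 and 90.2 CPM in AD and at 90.6 and 89.4 CPM in AD/KO, with a log2 fold change of −0.08 (SE 0.27, edgeR adjusted p = 0.912). All 4 libraries were thus nearly level in this gene although the microglia marker sum differed by 3.28-fold. Per 1000 CPM of microglia markers, Smad4 was at 3.77, 4.75 and 3.36 CPM in the first 3 libraries and at 10.9 CPM in AD/KO replicate 2. Smad2, Smad3 and Smad7 were also highest on that scale in AD/KO replicate 2, at 5.62, 13.5 and 9.62 CPM per 1000, against at most 3.32, 8.82 and 6.61 in the other libraries. Scaled to the microglia markers, all genes tested had a median of 0.79 on the log2 scale. These 4 Smads then turned to values above 0 (0.37 for Smad2, 0.35 for Smad3, 0.81 for Smad4 and 0.35 for Smad7). Relative to that median, Smad4 stood at 0.02 and the other 3 between −0.44 and −0.43.

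Per kilobase of exon the order of the mean levels over the 4 libraries was Tgfbr1 (152 RPKM), Tgfbr2 (57.2), Nrros (45.7), Tgfb1 (43.0), Smad3 (31.5), Smad7 (28.2), Smad4 (24.9), Smad2 (7.41), Itgb8 (3.26) and Tgfb2 (0.973). Tgfbr1 was higher than 99.5% and Tgfb2 higher than 14.8% of 14843 protein-coding genes tested. Neighbours in this order kept it in all 4 libraries for Tgfbr1 over Tgfbr2, Tgfbr2 over Nrros, Smad3 over Smad7, Smad4 over Smad2 and Itgb8 over Tgfb2. The step from Smad3 to Smad7 was as small as 1.02-fold. Nrros exceeded Tgfb1 in 1 library of 4, so these neighbours were not separated. Tgfb1 exceeded Smad3, Smad7 exceeded Smad4 and Smad2 exceeded Itgb8 in 3 of 4 libraries, the exception being AD/KO replicate 2 each time. In AD/KO replicate 2, Smad4 ranked 2 among the 10 genes and Nrros 7, whereas in AD replicate 1 they ranked 7 and 3.

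**Figure D3:**
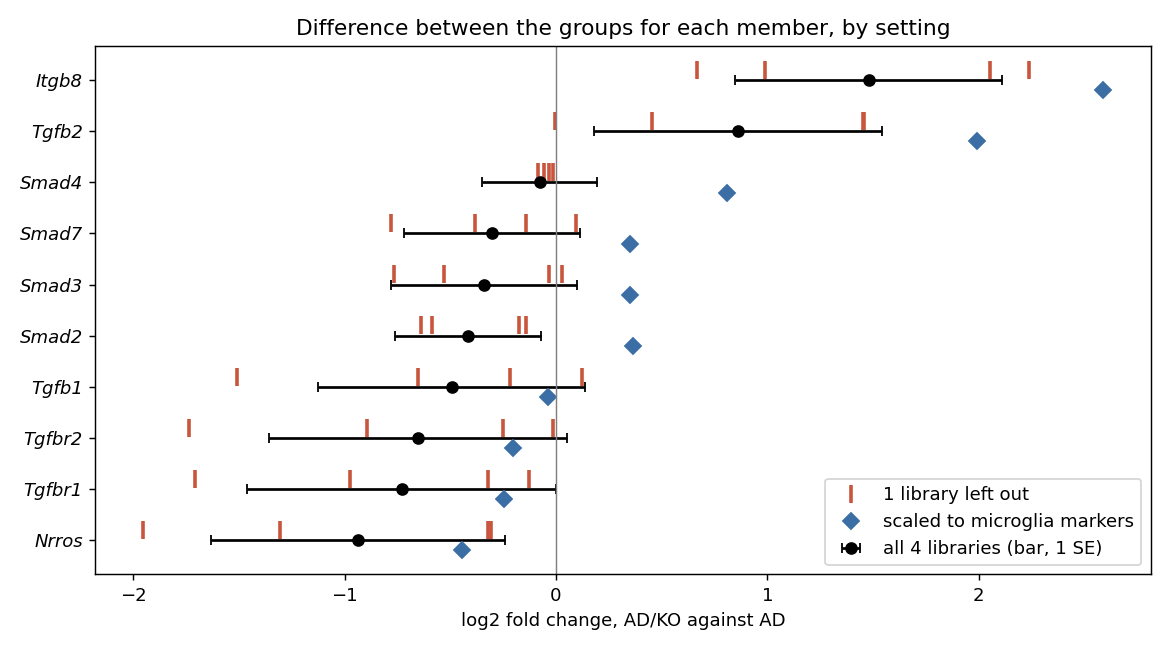
Log2 fold change (horizontal axis, AD/KO against AD) of each gene with all 4 libraries (points, bars of 1 SE), with 1 library left out (ticks) and with scaling to the microglia markers (diamonds). Left-out libraries move Nrros between −1.95 and −0.31 and Itgb8 between 0.67 and 2.24, and Smad4 stays between −0.083 and −0.015.

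How far each result rests on single libraries was examined by leaving each out. One group then has 1 library, which is assumed to vary like the other group. Without AD/KO replicate 1, the log2 fold changes were −1.71 for Tgfbr1, −1.74 for Tgfbr2, −1.95 for Nrros and −1.51 for Tgfb1. Without AD/KO replicate 2 they were −0.13, −0.01, −0.32 and 0.12. Without AD replicate 1 they were −0.32, −0.25, −0.31 and −0.22. For Itgb8, leaving out an AD/KO library gave 2.05 (replicate 1) or 0.67 (replicate 2), and leaving out an AD library gave 0.99 (replicate 1) or 2.24 (replicate 2). No gene of the 10 passed the test in any of these fits (edgeR quasi-likelihood, smallest adjusted p of 0.0841, for Itgb8 without AD replicate 2). AD replicate 2 and AD/KO replicate 1 were closest in the mean log2 CPM of neuron and astrocyte markers (6.63 and 6.57). Between them, Tgfb1, Tgfbr1, Tgfbr2 and Nrros were 1.31, 1.21, 1.30 and 1.23 times as high in AD/KO replicate 1, Itgb8 1.14 times and Tgfb2 0.758 times, with the microglia marker sum 1.42 times as high. This compares 1 library with 1 and has no test, and the neutrophil markers were at 0.103 times.

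Genes whose levels over the 4 libraries were most like Itgb8 and Nrros were sought among 13768 genes with a mean of at least 5 CPM, by the root mean square difference of centred log2 CPM. Closest to Itgb8 were Pmm1 (0.0071), Nlgn3 (0.014), a postsynaptic adhesion gene, and Abhd3 (0.022). Pmm1 stood at 11.6 and 26.1 CPM in AD and at 29.7 and 76.2 CPM in AD/KO. Closest to Nrros were Mfsd7a (0.010), Gm32036 (0.023) and Gm52135 (0.036). Within the 10 genes, the most alike were Tgfbr1 and Tgfbr2 (0.054) and Smad3 and Smad7 (0.095). The least alike were Nrros and Itgb8 (1.82). With 4 libraries these are descriptions.

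Beyond the 10 genes, 76 other genes of the pathway in 6 lists were examined, of which 72 were tested. None passed (0 of 72, edgeR quasi-likelihood with Benjamini-Hochberg), and 3 had an unadjusted p under 0.05, against 5% of all genes. In 9 of the 72 both AD/KO libraries were above both AD libraries, against 20.3% of all genes, and in 15 both were below, against 21.7%.

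Of 10 other ligands of the TGF-beta family, 8 had a higher and 2 a lower mean in AD/KO (median log2 fold change 0.74). With an AD library left out the median was 0.19 (replicate 1) or 2.24 (replicate 2), with an AD/KO library left out it was 1.27 (replicate 1) or 0.038 (replicate 2), and it turned to −0.43 with the neuron and astrocyte covariate. The neuron and astrocyte markers had medians of 1.40 and 1.41, and their part in the ligands' values was not tested. Inha, the inhibin alpha subunit, had the highest log2 fold change (1.45, SE 0.87), at 1.89 and 7.31 CPM in AD and 6.36 and 18.9 CPM in AD/KO. Gdf15, a stress-induced cytokine, had 11 and 12 reads in AD against 2 in each library of AD/KO, a ratio of 0.139 (95% exact interval 0.0349 to 0.407, for counting error only). Its edgeR unadjusted p was 0.0163 and its adjusted p 0.680.

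Among 16 genes of latency and activation, 15 were tested, 5 higher and 10 lower (median −0.28). The list's median was −0.055 without AD replicate 1, and with an AD/KO library left out it was −0.52 (replicate 1) or −0.019 (replicate 2). It turned to 0.48 with microglia scaling and 0.12 with the covariate, against medians of 0.79 and 0.0036 over all genes tested. Ltbp4, which anchors latent TGF-beta in the matrix, was at 9.29 and 27.2 CPM in AD and at 38.7 and 107 CPM in AD/KO, or 1.99 on the log2 scale (SE 0.74, unadjusted p = 0.0438, adjusted p = 0.680, edgeR). Both AD/KO libraries were above both AD libraries. Without AD replicate 2 the log2 fold change of Ltbp4 was 3.03. The AD arm of that fit is 1 library, that with the least astrocyte and neuron RNA. Its spread comes from the AD/KO libraries alone. The level of Ltbp4, like that of Itgb8, was highest in the library with the most astrocyte and neuron RNA, whose part was not tested. Mmp9, a protease that can release TGF-beta, had the lowest log2 fold change (−1.62), at 44.9 and 217 CPM in AD and at 38.2 and 47.2 CPM in AD/KO. It was high in AD replicate 2 alone, the library with the most neutrophil RNA, and the part of neutrophils was not tested. A further pair of genes was picked for their role after their values were seen. Itgav, the αv chain that pairs with Itgb8, was at 267 and 194 CPM in AD and 226 and 153 CPM in AD/KO. Lrrc32, the relative of Nrros used by other cells, was at 0.653 and 1.41 CPM in AD and 1.51 and 2.71 CPM in AD/KO.

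In the 11 other receptors (6 higher, 5 lower, median 0.12), Acvr1c, an activin-type receptor, had the highest log2 fold change, 1.40 (SE 0.74). Acvrl1, known from endothelium, had the lowest, −0.84 (SE 0.44), at 48.3 and 40.1 CPM in AD and 33.6 and 15.8 CPM in AD/KO. The 11 other Smads and partners (4 higher, 7 lower, median −0.05) ranged from −0.40 for Tab2, an adaptor of the TAK1 kinase, to 1.31 for Smad9, a Smad of the BMP branch. Of 14 other inhibitors, 13 were tested, with 4 higher and 9 lower (median −0.09). They ranged from −0.76 for Skil, a repressor of Smad complexes, to 0.39 for Fkbp1a, which holds the type I receptor inactive. The medians of these 3 lists each turned in direction under some settings. That of the receptors turned to −0.078 without AD/KO replicate 1 and −0.036 with the covariate. That of the inhibitors turned to 0.086 without AD replicate 1 and 0.025 without AD/KO replicate 2. With microglia scaling and with the covariate both the inhibitors (0.64 and 0.076) and the Smads and partners (0.85 and 0.016) turned. All genes tested then had medians of 0.79 and 0.0036. None of the genes tested in these 3 lists had an unadjusted p under 0.05 in the edgeR fit.

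Of 14 general Smad3 target genes, 12 were tested, 5 higher and 7 lower, with a median of −0.39. In 6 of the 12 both AD/KO libraries were below both AD libraries, against 21.7% of all genes, and in 2 both were above, against 20.3%. The median ranged from −0.34 to −0.21 with 1 library left out and was −0.43 with the covariate. It turned to 0.42 with microglia scaling, where all genes tested had a median of 0.79. Fn1, the matrix protein fibronectin, was at 103 and 151 CPM in AD and at 31.5 and 53.9 CPM in AD/KO. The groups did not overlap, and the log2 fold change was −1.57 (SE 0.41, unadjusted p = 0.0125, adjusted p = 0.680, edgeR). Beside it, 10 border macrophage and monocyte markers summed to 189 and 182 CPM in AD and to 87.9 and 70.9 CPM in AD/KO, and their part was not tested. Ccn2, a matricellular growth factor, had the highest log2 fold change, 1.73 (SE 0.78), on 6, 19, 35 and 66 reads.

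The 20 TGF-beta-dependent genes of homeostatic microglia, 10 of which also served as microglia markers, were lowest in AD/KO replicate 2 in 20 of 20 cases. So were all 20 microglia markers. The median log2 fold change of the TGF-beta-dependent genes was −0.38, with 18 lower and 2 higher, and without AD/KO replicate 2 it was 0.24. Tmem119, a marker of resident microglia, had the highest value, 0.08 (SE 0.79), at 1156 and 702 CPM in AD and 1554 and 404 CPM in AD/KO. Fcrls, an Fc receptor-like gene of resident microglia, had the lowest, −1.34 (SE 0.45, unadjusted p = 0.0311, adjusted p = 0.680, edgeR), at 462 and 587 CPM in AD and at 260 and 155 CPM in AD/KO. The median was −0.073 without AD replicate 1 and −1.51 without AD/KO replicate 1, and it turned to 0.52 with the covariate. With microglia scaling it turned to 0.028, where all genes tested had a median of 0.79.

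**Figure D4:**
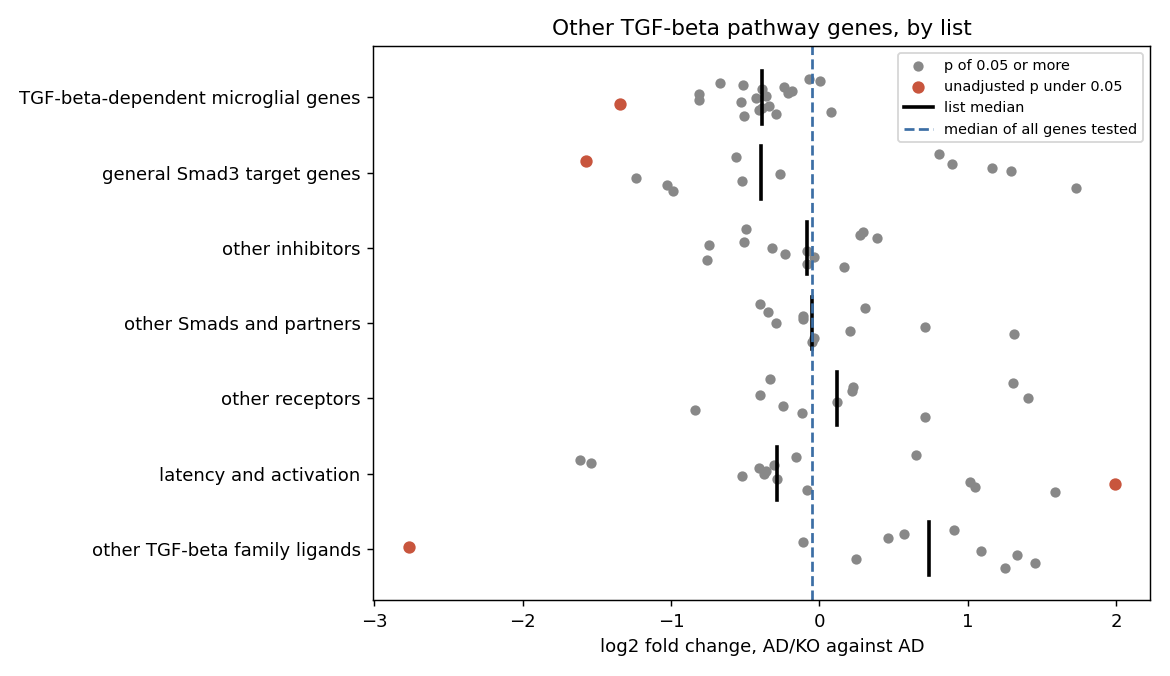
Log2 fold change (horizontal axis, AD/KO against AD) of each tested gene of 7 further lists, with list medians (bars) and the median of all genes tested (dashed line, −0.05). Red points are the 4 genes with an unadjusted p under 0.05: Gdf15, Ltbp4, Fn1 and Fcrls.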

How the data were processed

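Bulk RNA-seq was measured in 4 libraries of CD11b+ microglia (2 AD, 2 AD/KO). The authors deposited raw read counts for each gene symbol. Per the submitters' processing notes the tools included HISAT2 and featureCounts, with build mm10. The strand setting, annotation and treatment of reads matching several places are not given in the sources used here. In each table, 11 broken lines held no count and were left out; 0 columns were without a sample. Coordinates and promoters are from RefSeq for GRCm38.p6 and exonic lengths from GENCODE M21.

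Genes were kept by filterByExpr (minimum count 10, minimum total 15), scaled by TMM and tested with edgeR 4.0.16 in R 4.3.3 (quasi-likelihood, legacy method, 4 libraries, no covariates), with Benjamini-Hochberg adjustment over 21439 genes. The standard error is the log2 fold change divided by the square root of F. The biological coefficient of variation was 44.5%. Alternatives were DESeq2 1.42.0, DESeq2 size factors, scaling to 20 microglia markers, no filter, a filter at 1 CPM, edgeR's newer method, the replicate number as a block, a neuron and astrocyte covariate, and leaving out each library.

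Named genes were the 10 members, Ociad1, and from each further list the highest and the lowest log2 fold change and genes with an unadjusted p under 0.05. Itgav and Lrrc32, outside this rule, were added for their role after their values were seen, and marker genes for the check of cell types. Likeness was sought for the members with the highest and the lowest. Members, lists and tests were chosen with earlier results of these data known. Among the 10 genes, BLAST 2.17.0 (95% identity or more, 100 bases or longer) found matches to other genes' transcripts only for Tgfbr2, at most 171 bases long.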

Additional observations from a re-analysis of the deposited data

How the results depend on the processing

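Each of the 10 genes was fitted in 12 other ways and compared between AD replicate 2 and AD/KO replicate 1 alone, giving 130 values. Of these, 102 had the direction first reported and, where tested, the same call, 26 had the other direction and 2 newly passed. With the neuron and astrocyte level as a covariate (3 coefficients for 4 libraries) they turned to 0.33 (Tgfb1), −0.34 (Tgfb2), 0.21 (Tgfbr1), 0.31 (Tgfbr2), 0.074 (Smad2), 0.30 (Smad3), 0.0040 (Smad4), 0.22 (Smad7) and 0.23 (Nrros). With scaling to the microglia markers they turned to 0.37 (Smad2), 0.35 (Smad3), 0.81 (Smad4) and 0.35 (Smad7), and Ociad1 turned to 0.11; the share of all genes above 0 then went from 47.2% to 81.3%. With 1 library left out they ranged from −1.51 to 0.12 (Tgfb1), −0.0025 to 1.46 (Tgfb2), −0.77 to 0.030 (Smad3) and −0.78 to 0.093 (Smad7), turning without AD/KO replicate 2. In AD replicate 2 against AD/KO replicate 1 alone, added after the data were seen and without a test, the log2 ratios were in the other direction for 9 genes: 0.39 (Tgfb1), −0.40 (Tgfb2), 0.27 (Tgfbr1), 0.38 (Tgfbr2), 0.096 (Smad2), 0.33 (Smad3), 0.0060 (Smad4), 0.25 (Smad7) and 0.30 (Nrros).

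The count of all genes past the threshold, 0 by edgeR, was 90 with DESeq2 (0 of the 10 genes and 0 of the further lists) and from 0 to 524 with a library left out; 524 were called without AD replicate 2 and 48 without AD replicate 1. In the further lists it was 0 to 1 with a library left out. The cause was not tested.

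The groups share replicate numbers, which the labels tie to no litter, batch or day. Across genes, libraries of equal number deviated together, with a correlation of 0.68. In both groups replicate 2 also had the higher mean log2 CPM of neuron and astrocyte markers (6.63 against 5.12 in AD, 7.995 against 6.57 in AD/KO). The part of this level in the correlation was not tested. With the replicate number as a block, 4333 genes were called (20.2%, edgeR quasi-likelihood). Among them were 2 of the 10 genes, Nrros (log2 fold change −1.07, edgeR adjusted p = 0.0160) and Itgb8 (1.45, edgeR adjusted p = 0.00263). In the further lists 23 of 92 genes tested were called, 15 higher and 8 lower. At an unadjusted p under 0.05 the block fit had 7 of the 10 genes, against 8028 of 21439 genes. Of the 10 genes' calls after adjustment, the block changed no other. The precision of Tgfb2 is limited by its 38 to 195 reads.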
